A study of Arabidopsis thaliana with 10 samples.

Results

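The genes described here are 8 Arabidopsis thaliana cellulose synthase genes, the glycosyl-phosphatidylinositol-anchored protein gene COBRA (COB) and the endoglucanase gene KORRIGAN (KOR1). They are CESA1 (AT4G32410), CESA2 (AT4G39350), CESA3 (AT5G05170), CESA4 (AT5G44030), CESA5 (AT5G09870), CESA6 (AT5G64740), CESA7 (AT5G17420), CESA8 (AT4G18780), COB (AT5G60920) and KOR1 (AT5G49720). They are 10 of the 34047 genes in each deposited table, and all 10 had a usable test in all 4 comparisons. They were listed by gene identifier, with earlier results of these data known. RNA of whole seedlings, 10 days old, was sequenced in 5 genotypes of the Col-0 ecotype with 2 libraries each, without treatment. The IBH1 overexpressor is homozygous for 35Spro:IBH1-GFP and the IBL1 overexpressor for 35Spro:IBL1-GFP, in which the viral 35S promoter drives a fusion to green fluorescent protein in most tissues. The ibh1 mutant is homozygous for the T-DNA insertion SALK_049177, the ibl1 mutant for SALK_119457, and Col is the wild type. The labels name 1 transgene or allele per genotype, so a change cannot be told apart from an effect of that line's own insertion site. IBH1 stood at 22.2 FPKM in Col, 6.91 in the ibh1 mutant and 5148 in its overexpressor, transgene included. IBL1 stood at 7.70 FPKM in Col, 1.87 in the ibl1 mutant and 201 in its overexpressor, so both insertion mutants kept part of the transcript. The IBH1 overexpressor also held less IBL1, at 1.84 FPKM (log2 -2.07 ± 0.69 against Col, authors' q 0.0363).

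Cellulose is spun into the wall by rosette complexes in the plasma membrane, each built from 3 kinds of CESA catalytic subunit. In growing cells the complex takes CESA1, CESA3 and a CESA6-type subunit (CESA6, CESA2 or CESA5), and in xylem and fibre cells that lay down a secondary wall it takes CESA4, CESA7 and CESA8. COB is needed for the oriented deposition of microfibrils in elongating cells, and KOR1 is a membrane-bound endoglucanase that travels with the complexes. IBH1 and IBL1 are atypical basic helix-loop-helix proteins that restrain cell elongation downstream of brassinosteroids. Brassinosteroid-regulated transcription factors are known to act on CESA genes. The series asks how seedling transcripts differ from wild type when either protein is in excess or reduced.

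Promoters are shown for CESA3, CESA5 and CESA4, the genes whose calls in the IBH1 overexpressor went lower, higher and lower. Each run is the 300 bases before the gene start annotated by RefSeq on TAIR10.1, 5′ to 3′ along the gene's own strand. The capitals mark the E-box CANNTG, the core bound by many basic helix-loop-helix proteins, and in CESA4 also the tracheary element motif CTTNAAAGCNA, read on both strands. CESA3 lies on the minus strand (chr5:1535559-1535858), CESA5 on the plus strand (chr5:3072570-3072869) and CESA4 on the plus strand (chr5:17714090-17714389).
CESA3: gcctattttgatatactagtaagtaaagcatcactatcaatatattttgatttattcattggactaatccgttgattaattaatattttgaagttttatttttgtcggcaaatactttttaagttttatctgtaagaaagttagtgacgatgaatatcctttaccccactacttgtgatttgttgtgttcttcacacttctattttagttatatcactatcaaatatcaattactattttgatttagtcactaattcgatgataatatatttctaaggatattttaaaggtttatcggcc
CESA5: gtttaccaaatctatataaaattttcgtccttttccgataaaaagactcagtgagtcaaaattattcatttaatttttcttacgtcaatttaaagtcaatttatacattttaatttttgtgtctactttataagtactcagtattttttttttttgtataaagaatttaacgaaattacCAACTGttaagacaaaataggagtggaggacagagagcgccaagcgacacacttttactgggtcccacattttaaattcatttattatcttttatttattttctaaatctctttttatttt
CESA4: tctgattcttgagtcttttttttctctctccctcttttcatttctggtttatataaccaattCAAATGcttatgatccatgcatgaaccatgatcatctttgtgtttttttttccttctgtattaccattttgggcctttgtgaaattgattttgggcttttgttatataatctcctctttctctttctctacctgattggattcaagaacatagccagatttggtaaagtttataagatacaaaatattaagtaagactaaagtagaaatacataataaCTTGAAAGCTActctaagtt
The CESA3 window held no E-box, and the CESA5 window held a single one beginning at position -121 from the gene start. The CESA4 window held an E-box at -238 and, in its last bases, the tracheary element motif. Of the 10 genes, 6 had at least 1 E-box in this window (CESA1, CESA4, CESA5, CESA6, CESA7 and CESA8), against 61.9% of the windows of 27443 protein-coding genes. CESA7 had 3 of them. The G-box CACGTG, which is also an E-box, was in the window of 0 of the 10 genes and of 7.09% of all windows. The brassinosteroid response motif CGTGTG or CGTGCG, on either strand, was likewise in 0 of 10 and in 7.64% of all windows. The tracheary element motif was in CESA4 alone among the 10 and in 0.43% of all windows. A motif match is a description of these letters and not a site of binding.

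The genes span the range from abundant to scarce transcripts in seedlings. FPKM values are divided by transcript length and by library size, so levels can be compared between genes. In Col the highest was KOR1 at 155 FPKM, above 94.8% of the 20041 genes tested in all 4 comparisons. CESA3 followed at 112 FPKM, CESA1 at 99.1, COB at 84.8 and CESA6 at 58.7. CESA2 (28.6 FPKM) and CESA5 (25.3 FPKM) were the lower primary wall subunits. The secondary wall subunits were lowest, with CESA4 at 9.01, CESA7 at 5.36 and CESA8 at 4.83 FPKM, the last above only 24.4% of genes. Each is 1 deposited value per genotype, made from 2 libraries, so no spread between libraries can be given. The figure after ± is instead a standard error on the log2 scale, for line over Col, implied by the authors' statistic. Fold changes against Col and q-values named as the authors' come from the authors' deposited tables.

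**Figure D1:**
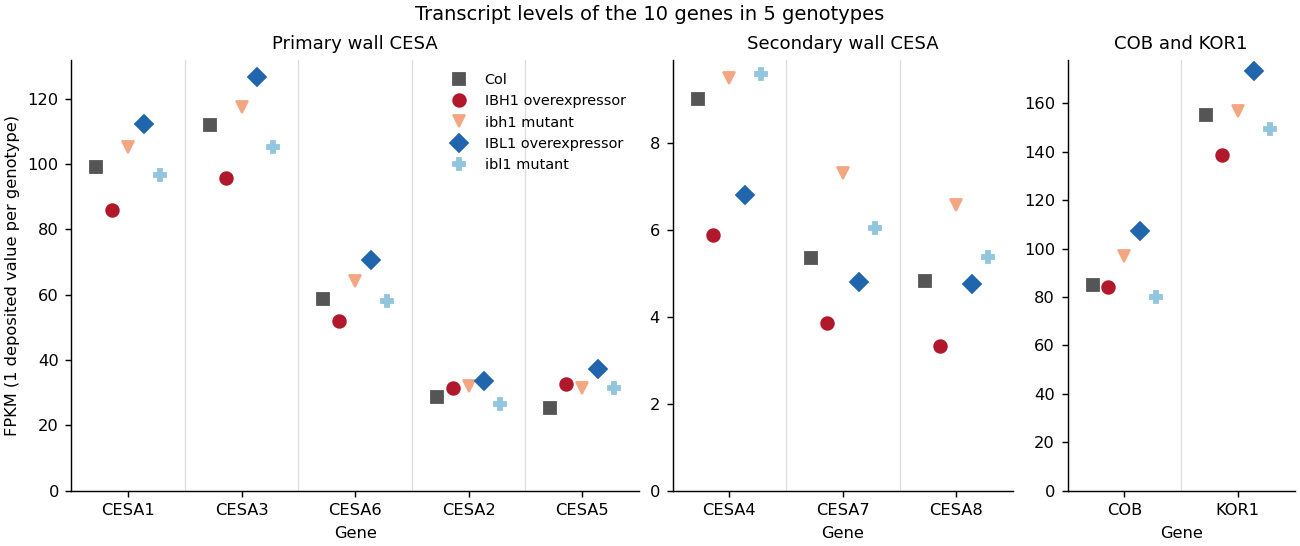
FPKM (vertical axis, linear, from 0) of each gene in the 5 genotypes, 1 point per genotype and no error bar because 1 value per genotype was deposited. The IBL1 overexpressor is highest for all 5 primary wall CESA genes, COB and KOR1, and the IBH1 overexpressor is lowest for all 3 secondary wall CESA genes.

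Of the 10 genes, 5 were called in at least 1 line, each of them in an overexpressor. A change was counted as called at an authors' q below 0.05. CESA5 rose in both overexpressors, CESA3 and CESA4 fell in the IBH1 overexpressor, and CESA6 and COB rose in the IBL1 overexpressor. The calls of CESA6 and COB were lost once a general shift of the IBL1 overexpressor was subtracted. Subtracting each line's shift added a fall of CESA4 in the IBL1 overexpressor (-0.52, q 0.0471). It also added a rise of CESA5 in the ibl1 mutant (0.38, q 0.0198). As deposited, CESA5 had 0.31 in each mutant, not called, beside 0.37 in the IBH1 overexpressor. With IBH1 overexpressed 3 of the 10 genes were called, 1 higher and 2 lower, against 8.02% called among 20694 genes with a test (3.82% higher, 4.19% lower). With IBL1 overexpressed 3 were called, all higher, where 13.9% of 21480 tested genes were called and 10.3% were called higher. The authors' Cuffdiff test called 0 of 10 in the ibh1 mutant (background 3.37%) and 0 of 10 in the ibl1 mutant (background 5.45%). At an unadjusted p under 0.05 these counts were 2 and 1. In whole seedlings fewer cells of a type and less RNA per cell cannot be told apart. The median log2 fold change over the 10 genes was -0.19 in the IBH1 overexpressor, where that of all tested genes was 0.01. It was 0.14 against 0.02 in the ibh1 mutant, 0.18 against 0.13 in the IBL1 overexpressor and -0.02 against -0.07 in the ibl1 mutant. In the mutants the 95% intervals rest on the error implied by the authors' statistic, from 2 libraries per genotype. That error may reflect technical spread alone, so the intervals may be too narrow. For CESA1 the interval ran from -0.09 to 0.26 in the ibh1 mutant and from -0.18 to 0.11 in the ibl1 mutant. For the scarcer CESA8 it was wider, from -0.31 to 0.63 in the ibl1 mutant. CESA5 intervals lay above 0, from 0.08 to 0.54 in the ibh1 mutant and 0.10 to 0.52 in the ibl1 mutant. That of CESA7 in the ibh1 mutant also did, from 0.03 to 0.87. In the mutants neither gene was called by the authors' q.

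**Figure D2:**
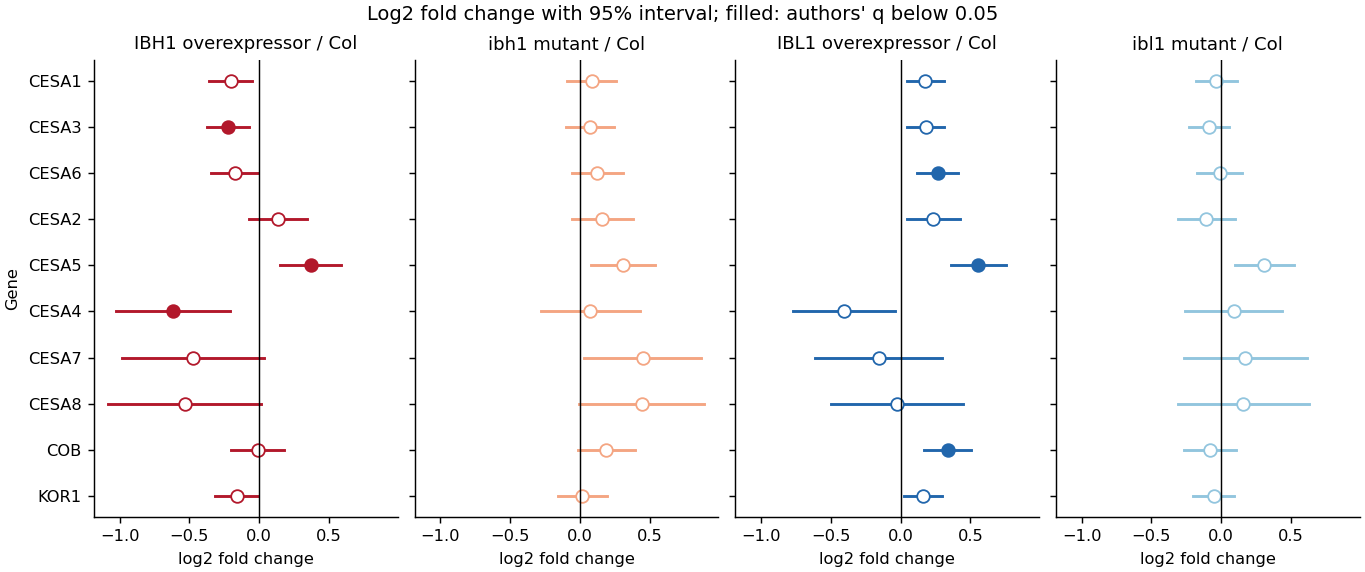
Log2 fold change of each line over Col (horizontal axis) for the 10 genes, with the 95% interval from the authors' statistic as a bar, and filled points where the authors' q was below 0.05. The intervals of CESA4, CESA7 and CESA8 are the widest, CESA5 is to the right of 0 in all 4 panels, and the mutants have no filled point.

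Primary wall subunits split in the IBH1 overexpressor: CESA5 rose, CESA3 fell and the other 3 were not called. Values are given for Col, then the ibh1 and ibl1 mutants, then the IBH1 and IBL1 overexpressors. CESA5, a CESA6-type subunit that is also known for seed-coat mucilage cellulose, stood at 25.3 FPKM in Col, 31.4 in each of the mutants, 32.7 with IBH1 overexpressed and 37.3 with IBL1 overexpressed. Col was thus the lowest of the 5 genotypes, with both mutants and the IBH1 overexpressor close together above it and the IBL1 overexpressor highest. In the authors' deposited table CESA5 rose 1.29-fold in the IBH1 overexpressor (log2 0.37 ± 0.11, authors' q 0.0156). It rose 1.47-fold in the IBL1 overexpressor (log2 0.56 ± 0.10, authors' q 1.52e-06). In the ibh1 mutant the value was 0.31 ± 0.12 (authors' q 0.139) and in the ibl1 mutant 0.31 ± 0.11 (authors' q 0.0711). All 4 comparisons share the Col libraries, so these values are not independent. Set directly against each other, the lines had CESA5 differences between -0.25 and 0.25 on the log2 scale, and 0 of the 6 pairings of lines was called for it (normal test on the difference, Benjamini-Hochberg over all genes).

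CESA3, the core subunit whose mutants resist isoxaben, stood at 112 FPKM in Col, 117 and 105 in the ibh1 and ibl1 mutants, 95.7 with IBH1 overexpressed and 127 with IBL1 overexpressed. It was the only primary wall subunit called lower in any line (log2 -0.22 ± 0.08 in the IBH1 overexpressor, authors' q 0.0466). CESA1, the other core subunit and the gene of the radially swollen rsw1 mutant, stood at 99.1, 105, 96.8, 86.0 and 112 FPKM in the same order of genotypes. Its value in the IBH1 overexpressor, -0.21 ± 0.08, was close to that of CESA3 but had an authors' q of 0.0848. CESA6, the main CESA6-type subunit, stood at 58.7, 64.1, 58.2, 52.0 and 70.5 FPKM. CESA1, CESA3 and CESA6 had the same order of genotypes, highest in the IBL1 overexpressor, then the ibh1 mutant, Col and the ibl1 mutant, and lowest in the IBH1 overexpressor, although no neighbours in that order passed the test against each other for these genes. CESA2 stood at 28.6, 31.9, 26.6, 31.4 and 33.6 FPKM and was called in no line.

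In the IBL1 overexpressor all 5 primary wall CESA genes had values above 0, and CESA5 and CESA6 rose. CESA6 had 0.26 ± 0.08 (authors' q 0.00578), CESA2 0.23 ± 0.10 (authors' q 0.0885), CESA3 0.18 ± 0.07 (authors' q 0.0524) and CESA1 0.18 ± 0.07 (authors' q 0.0638). The median of all expressed genes was itself shifted by 0.12 in this line, against 0.01 in the IBH1 overexpressor and in the ibh1 mutant and -0.07 in the ibl1 mutant. Relative to that shift CESA5 was still called (0.44, q 0.000304) and CESA6 was not (0.15, q 0.208), where 11.6% of all tested genes were called. CESA1 and CESA3 were then both at 0.06. In the ibl1 mutant the same centring brought the CESA5 value to 0.38 (q 0.0198), past the threshold, with 3.94% of tested genes called.

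Secondary wall subunits were lowest in the IBH1 overexpressor. CESA4, the gene of the irregular xylem mutant irx5, stood at 9.01 FPKM in Col, 9.50 and 9.60 in the ibh1 and ibl1 mutants, 5.88 with IBH1 overexpressed and 6.81 with IBL1 overexpressed. Both overexpressors had lower values than Col and both mutants slightly higher ones. CESA4 fell in the IBH1 overexpressor, to 65.3% of Col (log2 -0.62 ± 0.21, authors' q 0.0422). CESA7 (irx3) stood at 5.36, 7.32, 6.04, 3.86 and 4.80 FPKM in the same order, and CESA8 (irx1) at 4.83, 6.57, 5.38, 3.33 and 4.75 FPKM. Their values in the IBH1 overexpressor, -0.47 ± 0.26 and -0.53 ± 0.28, were of similar size to that of CESA4 but had wider errors and were not called (authors' q 0.292 and 0.265). In the IBL1 overexpressor CESA4 had -0.40 ± 0.19 (authors' q 0.14), and relative to that line's shift -0.52 (q 0.0471), while CESA7 had -0.16 ± 0.23 and CESA8 -0.02 ± 0.24. In the ibh1 mutant CESA7 had 0.45 ± 0.21 and CESA8 0.44 ± 0.23, and neither was called (authors' q 0.284 and 0.331). In the overexpressors, but not in the mutants, the sum of 7 xylem markers lay on the same side of Col as these values. It was 126 FPKM in Col, 113 and 118 in the ibh1 and ibl1 mutants, 87.2 with IBH1 overexpressed and 89.3 with IBL1 overexpressed. XCP2 and XCP1 were the largest parts of it, at 52.9 and 39.6 FPKM in Col. The marker VND6 went the other way in the IBH1 and IBL1 overexpressors (log2 0.19 ± 0.75 and 0.44 ± 0.70) and was not called. The part of these markers in the secondary wall CESA values was not tested.

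Each of these 3 genes shares its locus in the deposited files with a neighbour on the opposite strand, and the TruSeq RNA kit named in the labels does not mark strand. In the RefSeq annotation CESA4 (chromosome 5, 17714390 to 17719723, 12 exons) overlaps AT5G44040 by 65 bases, and CESA7 (chromosome 5, 5736630 to 5741500) overlaps AT5G17410 by 66 bases. CESA8 (chromosome 4, 10312624 to 10316886) overlaps AT4G18770 by 481 bases, and that neighbour was listed at 0 in Col. AT5G44040, at 12.5 FPKM in Col, had -0.36 ± 0.24 in the IBH1 overexpressor (authors' q 0.413). AT5G17410, at 8.58 FPKM in Col, had -0.17 ± 0.24 there (authors' q 0.745) and 0.35 ± 0.21 in the ibh1 mutant (authors' q 0.425), where CESA7 had 0.45. Reads in the overlaps cannot be assigned to a gene here, so the values of these genes are uncertain to that extent. The 5 primary wall genes, COB and KOR1 share their file locus with no other gene.

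COB stood at 84.8 FPKM in Col, 96.8 and 80.1 in the ibh1 and ibl1 mutants, 84.3 with IBH1 overexpressed and 107 with IBL1 overexpressed. The IBL1 overexpressor stood above the other genotypes, and the IBH1 overexpressor was at 99.4% of Col. COB rose 1.26-fold in the IBL1 overexpressor (log2 0.34 ± 0.09, authors' q 0.00152). Relative to that line's shift its value was 0.22 (q 0.0738), which is no longer a call. KOR1 stood at 155, 157, 149, 139 and 173 FPKM in the same order. It was called in no line against Col, with -0.16 ± 0.08 in the IBH1 overexpressor and 0.16 ± 0.07 in the IBL1 overexpressor (authors' q 0.217 and 0.115).

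Set against each other, the overexpressors differed in 3 primary wall subunits and KOR1, in a comparison in which the Col level cancels. Against the IBL1 overexpressor, the IBH1 overexpressor was lower for CESA6 (log2 -0.44 ± 0.11, q 0.00402), CESA3 (-0.40 ± 0.10, q 0.00303), CESA1 (-0.38 ± 0.10, q 0.00721) and KOR1 (-0.32 ± 0.11, q 0.0438). These 4 of 10 were called where 5.48% of 20005 tested genes were called in either direction and 4.08% were called lower. The error here is an upper bound, since the spread of the shared Col libraries enters it. COB had -0.35 ± 0.13 (q 0.104), CESA5 -0.19 ± 0.15 (q 0.668) and CESA2 -0.10 ± 0.14 (q 0.874). CESA8 had -0.51 ± 0.37, CESA7 -0.32 ± 0.35 and CESA4 -0.21 ± 0.28, with q between 0.618 and 0.857. After the median difference of all expressed genes was subtracted, 0 of the 10 genes were called (3 had an unadjusted p under 0.05, and 5.07% of tested genes were called): CESA6 was at -0.32 (q 0.0747), CESA3 at -0.29 (q 0.0791), CESA1 at -0.27 (q 0.137) and KOR1 at -0.21 (q 0.376). The direction was kept, and the calls depend on the scaling.

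**Figure D3:**
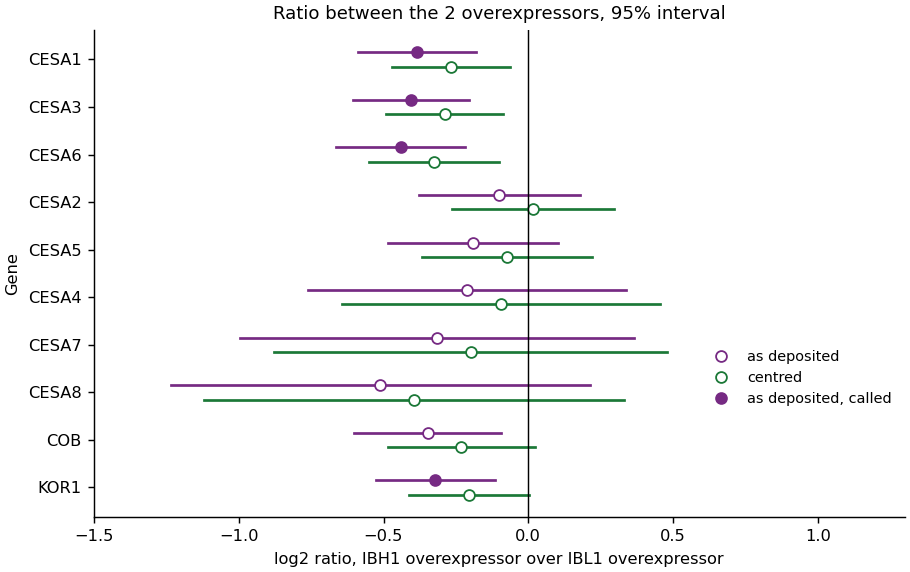
Log2 ratio of the IBH1 overexpressor over the IBL1 overexpressor (horizontal axis) for the 10 genes, as deposited and after subtracting the median over expressed genes, with 95% intervals and filled points for q below 0.05. As deposited, CESA1, CESA3, CESA6 and KOR1 are filled, and after centring no point is.

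The other pairings of lines gave a single call. COB was higher in the IBL1 overexpressor than in the ibl1 mutant (log2 0.42 ± 0.13, q 0.0263, background 5.16% of 20088 genes), and centring ended that call (0.23, q 0.559, background 3.36%). Between the IBH1 overexpressor and the ibh1 mutant 0 of 10 were called (background 2.91%), although 6 of 10 had an unadjusted p under 0.05 in this normal test. The widest differences there were those of CESA8 (-0.98 ± 0.36, q 0.154), CESA7 (-0.92 ± 0.34, q 0.142) and CESA4 (-0.69 ± 0.28, q 0.221). The ibh1 and ibl1 mutants differed in 0 of 10 (0 at an unadjusted p under 0.05, background 0.466%), with all log2 differences between -0.01 and 0.29. The IBH1 overexpressor against the ibl1 mutant (background 3.27%) and the ibh1 mutant against the IBL1 overexpressor (background 2.54%) also gave 0 of 10, with 1 and 0 at an unadjusted p under 0.05 as deposited and 6 and 2 after centring.

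By position in the complex, the primary wall transcripts of Col were almost level, at 99.1 FPKM for CESA1, 112 for CESA3 and 113 for CESA2, CESA5 and CESA6 together. The IBH1 overexpressor had 86.0, 95.7 and 116 FPKM, so the CESA6-type sum was 1.35 times CESA1 there and 1.14 times CESA1 in Col. The ratio was 1.21 and 1.20 in the ibh1 and ibl1 mutants and 1.26 with IBL1 overexpressed. CESA3 over CESA1 stayed between 1.09 and 1.13 in the 5 genotypes. CESA5 made up 22.5% of the CESA6-type sum in Col, 24.6% and 27.0% in the ibh1 and ibl1 mutants, 28.2% with IBH1 overexpressed and 26.4% with IBL1 overexpressed. CESA6 made up 52.1% in Col and 44.8% with IBH1 overexpressed. The secondary wall subunits made up 5.60% of all 8 CESA transcripts in Col, 4.21% with IBH1 overexpressed and 4.12% with IBL1 overexpressed. In the ibh1 and ibl1 mutants they made up 6.26% and 6.20%. These ratios come from group values and carry no test.

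**Figure D4:**
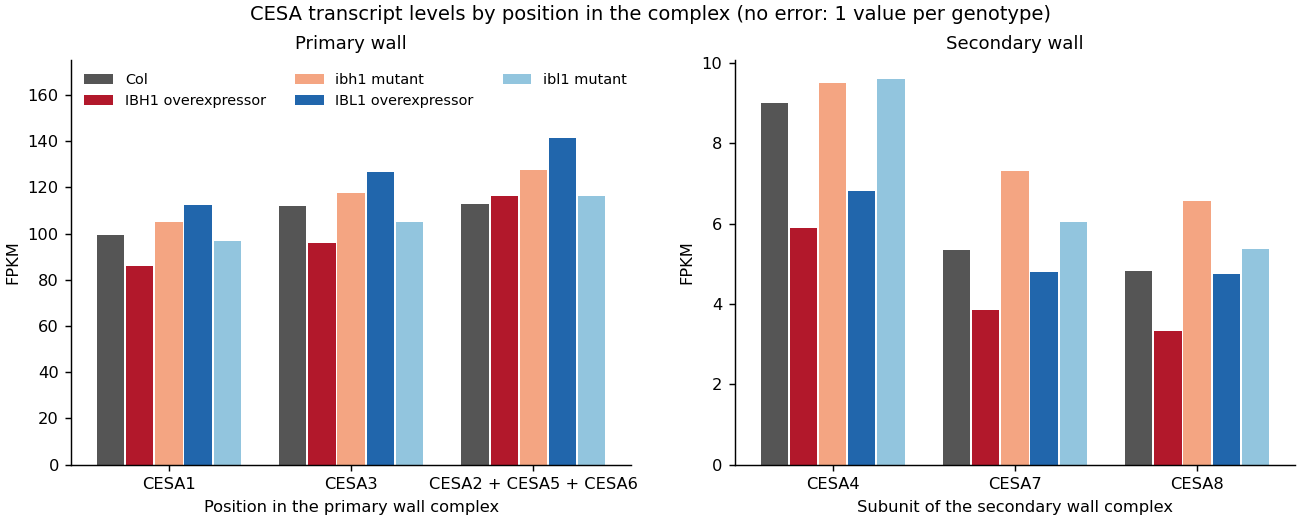
FPKM (vertical axes, linear, from 0) of CESA1, CESA3 and the summed CESA6-type subunits in the left panel, and of CESA4, CESA7 and CESA8 in the right panel, 1 bar per genotype with no error. The CESA6-type bar of the IBH1 overexpressor (116 FPKM) is above that of Col (113 FPKM), while its CESA1 and CESA3 bars are below.

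Partners of the complex were examined next in a list of 17 genes, 4 of them without a symbol in the annotation. In the IBH1 overexpressor 4 of 16 tested fell and 0 rose, beside 4.19% called lower and 3.82% called higher among all genes. CTL2, a chitinase-like gene of secondary wall cells, fell from 20.1 to 6.81 FPKM (log2 -1.56 ± 0.30, authors' q 1.46e-05). CTL1, its primary wall counterpart required for normal cellulose, fell by 0.39 ± 0.08 from 388 to 295 FPKM. SHV3 and SVL1, which encode glycosyl-phosphatidylinositol-anchored proteins of cell wall organisation, fell by 0.45 ± 0.12 and 0.45 ± 0.15. In the IBL1 overexpressor 5 of 16 rose and 1 fell, beside 10.3% called higher and 3.58% called lower among all genes. CTL2 fell there too (-0.91 ± 0.24), while CSI3 (0.73 ± 0.18), KOR2 (0.62 ± 0.21), AT1G45688 (0.60 ± 0.10) and SHV3 (0.49 ± 0.10) rose. CSI3 is a homologue of CSI1, which links complexes to microtubules, and KOR2 is a homologue of KOR1. CSI1 itself also rose in the IBL1 overexpressor (0.24 ± 0.08, authors' q 0.0324), though not after centring (q 0.371). Relative to the shift CSI3, AT1G45688 and SHV3 were still called, 3 of the 5. None of 15 tested was called in the ibh1 mutant or in the ibl1 mutant, where 4 and 2 had an unadjusted p under 0.05. Among all genes 3.37% and 5.45% were called in these mutants.

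The COBRA-like family had 7 tested members of 10. COBL7 fell in the IBH1 overexpressor (-0.64 ± 0.20). COBL8 (1.17 ± 0.39) and COBL2 (1.15 ± 0.36) rose in the IBL1 overexpressor, COBL8 not after centring. Among all genes 4.19% were called lower in the IBH1 overexpressor and 10.3% higher in the IBL1 overexpressor. By Cuffdiff 0 of 7 were called in the ibh1 and ibl1 mutants, where 3.37% and 5.45% of all genes were called. At an unadjusted p under 0.05 the count was 0 in both. COBL4, the secondary wall member of the family, was at 1.79 FPKM in the IBH1 overexpressor and 3.57 in Col (authors' q 0.249, not called). Of 19 cellulose synthase-like genes, some of which make other wall glucans and mannans, 15 were tested in each overexpressor. In the IBH1 overexpressor 2 rose and 1 fell, and in the IBL1 overexpressor 6 rose. The shares called among all genes were 8.02% in the former line and 13.9% in the latter. CSLC4, a xyloglucan backbone synthase, fell by 0.85 ± 0.15 in the IBH1 overexpressor and rose by 0.51 ± 0.11 in the IBL1 overexpressor. CSLE1 rose in both (0.71 ± 0.10 and 0.33 ± 0.09), and CSLD3, which acts in root hair growth (0.47 ± 0.11), and CSLA7, a glucomannan synthase gene (0.68 ± 0.24), rose in the IBL1 overexpressor. CSLG2 rose from 0.0760 FPKM in Col to 1.46 and 2.35 FPKM in the overexpressors, so its fold rests on a Col level far below 1 FPKM. With a pseudocount of 0.1 the call in the IBH1 overexpressor ended (q 0.146) and that in the IBL1 overexpressor did not (q 0.0337), and with a pseudocount of 1 both ended (q 0.78 and 0.538). Relative to the shift 3 of the 6 rises of this family in the IBL1 overexpressor were still called (CSLG2, CSLC4 and CSLD3). In the mutants, beside the same 3.37% and 5.45% of all genes, 0 of 14 were called, with 5 and 4 at an unadjusted p under 0.05. Of 8 genes that supply UDP-glucose, the substrate of cellulose synthase, 7 were tested. The sucrose synthase genes SUS4 (1.83 ± 0.25) and SUS1 (0.41 ± 0.11) rose in the IBH1 overexpressor. SUS4 also rose in the ibh1 mutant (0.87 ± 0.27) and in the IBL1 overexpressor (0.86 ± 0.27), where UGP1 rose as well (0.30 ± 0.08). After centring of the latter line SUS4 was at 0.75, at the threshold (q 0.05003), and UGP1 at 0.18 (q 0.142). Among all genes 3.82% were called higher in the IBH1 overexpressor and 10.3% in the IBL1 overexpressor. In the ibh1 mutant 3.37% were called in either direction. The ibl1 mutant had 0 of these 7 called (0 at an unadjusted p under 0.05), beside 5.45% of all genes. Of 6 genes of wall integrity signalling, the receptor kinase gene HERK1 fell in the IBH1 overexpressor (-0.53 ± 0.18, authors' q 0.0483). Its call was lost with a pseudocount of 0.1 or 1 and at a q below 0.01. THE1, whose product monitors cellulose deficiency, rose in the IBL1 overexpressor (0.48 ± 0.12), also after centring (q 0.0327). Of all genes, 4.19% were called lower in the IBH1 overexpressor and 10.3% higher in the IBL1 overexpressor. The ibh1 and ibl1 mutants had 0 of 6 called, where 3.37% and 5.45% of all genes were called. At an unadjusted p under 0.05 the counts were 1 and 2.

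Genes that are transcribed with the secondary wall CESA genes in xylem had values below Col in the overexpressors in most cases, few of them called. Of 16 such genes, all tested, 2 fell in the IBH1 overexpressor and 3 in the IBL1 overexpressor, and 15 and 12 had values below 0. Among all genes 4.19% and 3.58% were called lower in these lines. XCP1, XCP2, LAC4, LAC17 and IRX9 are also among the 7 xylem markers summed above, so the list and that sum are not independent. The list's median was -0.52 in the IBH1 overexpressor and -0.19 in the IBL1 overexpressor, where those of all tested genes were 0.01 and 0.13. XCP2, a protease gene of xylem vessels, fell in both (-0.67 ± 0.15 and -0.62 ± 0.14). IRX7, a xylan synthesis gene, fell in the IBH1 overexpressor (-1.07 ± 0.36), and the lignin laccase gene LAC4 (-0.56 ± 0.18) and the protease gene XCP1 (-0.50 ± 0.16) fell in the IBL1 overexpressor. In the ibh1 and ibl1 mutants 0 of 16 were called by Cuffdiff (0 and 1 at an unadjusted p under 0.05, with 3.37% and 5.45% of all genes called), with medians of 0.05 and -0.01. Of 17 transcription factor genes of secondary wall formation, 10 to 12 were tested per comparison and 0 were called in any line. In the IBH1 overexpressor, ibh1 mutant, IBL1 overexpressor and ibl1 mutant 1, 0, 0 and 0 had an unadjusted p under 0.05. Among all genes 8.02%, 3.37%, 13.9% and 5.45% were called in that order of lines. The listed gene XND1, a repressor of vessel differentiation, was at 0.677 FPKM in the IBH1 overexpressor and 3.37 in Col (log2 -2.32 ± 1.00, authors' q 0.146). The fibre regulators SND1, NST1 and NST2 were listed at 0 in Col.

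**Figure D5:**
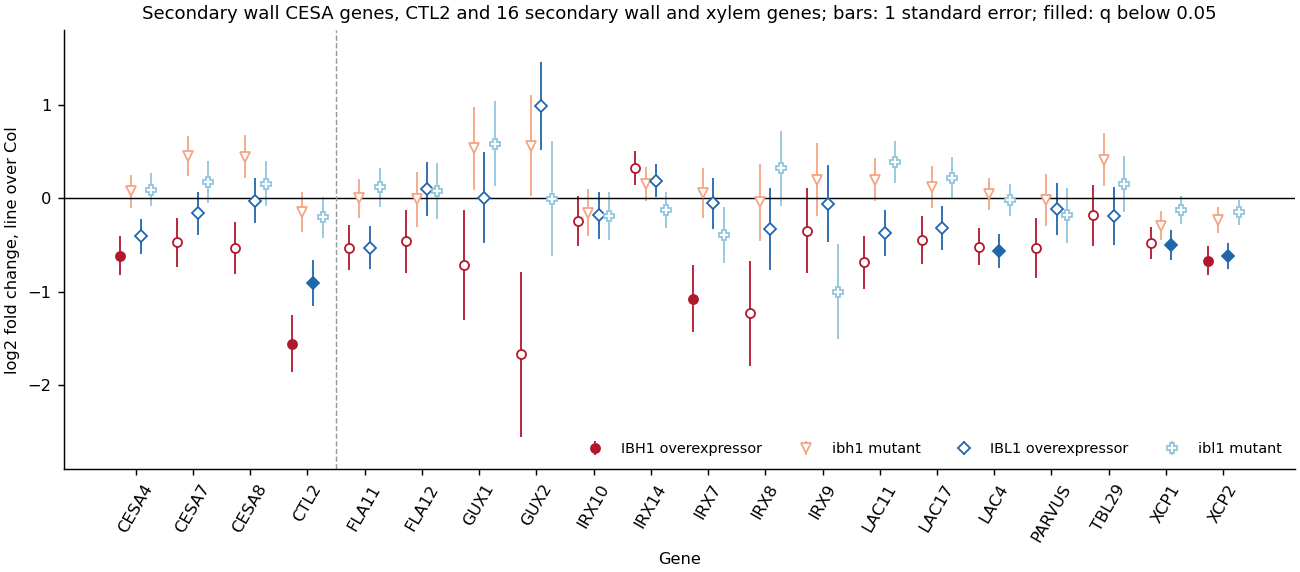
Log2 fold change over Col (vertical axis) of CESA4, CESA7, CESA8 and CTL2, left of the dashed line, and of 16 secondary wall and xylem genes, with 1 standard error as bar and filled points where the authors' q was below 0.05. In the IBH1 overexpressor 15 of the 16 values are below 0, and only IRX7 and XCP2 are filled among them.

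Markers of other cell types differed between the genotypes too. The 3 phloem markers summed to 106 FPKM in Col, 86.7 and 95.6 in the ibh1 and ibl1 mutants, 111 with IBH1 overexpressed and 82.0 with IBL1 overexpressed. In the IBL1 overexpressor 2 of the 3 fell, the phloem regulator APL (-0.83 ± 0.25) and the sucrose transporter SUC2 (-0.30 ± 0.10). Among all genes 3.58% were called lower there. The 5 root markers summed to 79.9 FPKM in Col, 106 and 78.4 in the ibh1 and ibl1 mutants, 64.5 with IBH1 overexpressed and 110 with IBL1 overexpressed. CASP1, a gene of the root endodermis, rose in the ibh1 mutant (0.67 ± 0.17) and the IBL1 overexpressor (0.75 ± 0.16), and the root patterning gene SHR fell in the IBH1 overexpressor (-0.81 ± 0.22). WER, an epidermal regulator, rose in the IBL1 overexpressor (1.86 ± 0.68), though not after centring. CASP1, the largest part of the root sums, stood at 40.3, 63.9, 41.5, 32.1 and 67.7 FPKM in the same order of genotypes. The root list was split: SHR and SCR had values below Col in all 4 lines, and WER and SMB above it. SCR and SMB were called in no line. All 5 light-harvesting markers fell in all 4 lines, their sum going from 20104 FPKM in Col to 8395 FPKM in the IBL1 overexpressor at the lowest. Between 3.37% and 13.9% of all genes were called per line, in either direction. No marker of these lists was at 0 in any genotype. The part of organ or cell composition in the CESA values was not tested.

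Genes with the most similar profile were sought among 3942 genes at 5 FPKM or more in Col that were tested in all 4 comparisons and called in at least 1. Likeness was the root mean square difference over the 4 log2 fold changes, which share Col. To the mean profile of CESA1, CESA3 and CESA6 (-0.20 and 0.21 in the IBH1 and IBL1 overexpressors, 0.09 and -0.05 in the ibh1 and ibl1 mutants) the nearest were UBA1 (AT2G30110, 0.018), AT2G02870 (0.051), ACT2 (AT3G18780, 0.054), ENO1 (AT1G74030, 0.054) and ATMS1 (AT5G17920, 0.057). ACT2 is an actin gene often used as a reference. To the mean profile of CESA4, CESA7 and CESA8 (-0.54, -0.20, 0.32 and 0.14 in that order) the nearest were HB2 (AT3G10520, 0.076), AT4G24780 (0.082), TRM3 (AT1G18620, 0.11), SULTR2;1 (AT5G10180, 0.11) and TGG2 (AT5G25980, 0.11).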

How the data were processed

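Messenger RNA of whole seedlings was sequenced, 2 libraries per genotype, called biological replicates in the labels, although a protocol text there speaks of 3 replicates. Per the submitters' processing notes, CASAVA 1.8.2, TopHat 1.4.1 and Cuffdiff were used against TAIR10. Cuffdiff's version and scaling were not given in the sources used here. For each line, the authors' table holds FPKM for the line and for Col (a single value each), a log2 fold change, a statistic (unit: score), p-values and q-values. Depth per library is unknown, and the labels do not say whether replicates were grown apart, so the p-values may reflect technical spread alone.

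The log2 values, deposited as Col over line, were given the opposite sign. The standard error is log2 fold change over statistic, whose two-sided normal p matched the deposited p-value to within 2.81e-06, and 95% intervals are normal. Calls use genes of status OK. Line against line, the difference of both log2 values was divided by the root of the summed squared errors (two-sided normal p, Benjamini-Hochberg). Of 6 pairings, 2 were added after the data were seen. Centring subtracts the median log2 value over genes with at least 1 FPKM in both groups. The test code was tried on data simulated with these same standard errors (Python 3.11.15, scipy 1.17.1). Such a trial cannot show whether the errors themselves are right.

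The 10 genes and the other lists were chosen with earlier results of these data known. From other lists, called genes are named, largest change first, up to 4 per comparison. A gene named in one comparison may be given in another (SHV3, CSLE1), and an uncalled one is named where a count was 0. COBL4, CSI1, VND6, SCR and SMB were named after their values were seen. Promoters and symbols come from RefSeq on TAIR10.1, in which 27855 of 34047 identifiers were found. The files' tables name IBL1 as bHLH159, taken as AT4G30410 from general knowledge.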

Additional observations from a re-analysis of the deposited data

Results flagged for a closer look

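The difference between the effects of the 2 overexpressors was tested gene by gene and passed the threshold for 4 of the 10 genes, where 5.48% of all tested genes were called and 4.08% were called lower. The log2 ratio of the IBH1 overexpressor over the IBL1 overexpressor was -0.44 for CESA6, -0.40 for CESA3, -0.38 for CESA1 and -0.32 for KOR1. After centring 0 of the 4 were called (q 0.0747 for CESA6, 0.0791 for CESA3, 0.137 for CESA1 and 0.376 for KOR1). Against Col the values of CESA6, CESA3, CESA1 and KOR1 were -0.18, -0.22, -0.21 and -0.16 in the IBH1 overexpressor, of which that of CESA3 alone was called. In the IBL1 overexpressor they were 0.26, 0.18, 0.18 and 0.16, of which that of CESA6 alone was called. Relative to that line's shift they were 0.15, 0.06, 0.06 and 0.04, with 0 called. Single libraries could not be examined.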

How the results depend on the processing

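Each genotype has a single value in the files used here, so no library could be left out, and depth gives no interval. No paired analysis was possible because values of single libraries were not analysed here. The count of the 10 genes called in the IBH1 overexpressor, 3, was 0 at a q below 0.01 and 1 with a pseudocount of 1 (CESA5). The count in the IBL1 overexpressor, 3, ranged from 2 to 4, and centring ended the calls of CESA6 and COB and added CESA4. In the ibl1 mutant centring moved the count from 0 to 1 (CESA5). Between the overexpressors it moved from 4 to 0. Between the IBL1 overexpressor and the ibl1 mutant both centring and a q below 0.01 moved it from 1 to 0. No direction reversed among the called values of the 10 genes under the alternatives run. Of 60 values of other genes called in the lists, 9 were lost after centring and 17 at a q below 0.01. With a pseudocount of 0.1 the loss was 4, and with a pseudocount of 1 it was 12. The cause was not tested.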
